A study of Mus musculus with 16 samples.

Results

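The genes described here encode the nuclear-encoded subunits of the mitochondrial respiratory chain and of ATP synthase, measured in single cells of the cortex of aged THY-Tau22 mice. They were chosen by name, with earlier results of these data known. The choice took every gene of the count tables whose symbol begins with Nduf followed by a, b, c, s or v, or with Uqcr. It also took those that begin with Cox4 to Cox8 or with Atp5, and the genes Sdha, Sdhb, Sdhc and Sdhd. Processed copies, predicted genes, Ndufa4l2 and the assembly factors named Ndufaf were left out. This gave 84 of 30389 genes: 37 of complex I, 4 of complex II, 8 of complex III, 18 of complex IV and 17 of complex V. Atp5s and Atp5sl match by name, although they are not canonical ATP synthase subunits.

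The respiratory chain sits in the inner mitochondrial membrane. Complexes I (NADH dehydrogenase) and II (succinate dehydrogenase) feed electrons to ubiquinone, complex III (cytochrome bc1) passes them to cytochrome c, and complex IV (cytochrome c oxidase) reduces oxygen, while ATP synthase, complex V, uses the proton gradient made by complexes I, III and IV. Most subunits are encoded in the nucleus and imported, and a small set is encoded by the mitochondrial DNA. In brain, the chain supplies most of the ATP spent on ion pumping and synaptic transmission, and several complex IV subunits exist as alternative isoforms with known tissue preferences.

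THY-Tau22 mice carry a human 4-repeat tau with the G272V and P301S mutations, expressed in neurons from a Thy1.2 promoter. Heterozygous males were bred with C57Bl6/J females, and the wild-type (WT) mice were littermates. The neocortex of each mouse, at 17 months of age, was dissociated enzymatically and profiled by Drop-seq, a droplet method that tags transcripts near their 3′ end with a barcode for the cell and an identifier for the molecule (UMI). Of the 16 libraries, WT male 3 and THY-Tau22 male 4 shared 2952 of 3000 barcodes, against 3 to 12 in the other 119 pairs. They held 1 library under both genotypes and were left out, which left 3 WT and 3 THY-Tau22 males and 3 WT and 5 THY-Tau22 females. WT male 1 and THY-Tau22 female 1 carry the same animal number in their titles. The numbers used here only name a mouse. The transgene is human, and the genotype was not checked from the mouse genes counted.

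Barcodes with 200 to 7000 detected genes were kept, which left 24578 cells in the 14 libraries, with 1121 to 2526 cells and 755945 to 2089367 UMIs per library. A median cell held 429 to 736.5 UMIs, depending on the library. The members together received 167432 UMIs, 5577 to 20857 per library. Cells were assigned to 7 main classes by marker genes, none of which is a member: neuron-like (1096 cells), astrocyte-like (4352), oligodendrocyte-like (4618), oligodendrocyte precursor (OPC)-like (932), microglia-like (5985), endothelial-like (2938) and mural-like cells (383). Mural-like cells, the contractile cells of vessel walls, reached the minimum of 10 cells in 13 libraries. Neuron-like cells were few after dissociation, at 26 to 168 per library, and no doublet caller was run. In the median cell, the class's own marker list took 127 (OPC-like) to 1216 (oligodendrocyte-like) of every 10000 UMIs. Mural-like cells held 144 mural, 72.1 endothelial and 53.3 astrocyte marker UMIs per 10000, and the part of these other transcripts in the mural values was not tested. Levels below are in CPM, the UMIs of a gene or group for each 1000000 UMIs of the same cells. Since 1 UMI stands for 1 transcript tagged at its end, CPM needs no correction for gene length, although capture can still differ between genes.

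Complex IV held the most abundant single member. Over all cells, Cox4i1, the regulatory subunit IV of cytochrome oxidase, lay at 430 CPM in the median library, with 288 in the lowest and 745 in the highest. Cox6c and Cox6a1, further small subunits of the same complex, had medians of 251.5 and 245 CPM. In complex I the highest levels belonged to Ndufa4 at 207 CPM, Ndufc2 at 189 and Ndufb9 at 188 in the median library. Ndufa4 was named as a complex I protein and is now known as a subunit of cytochrome oxidase, but it is counted by its name here. In complex III the hinge protein gene Uqcrh (165 CPM), Uqcrb (167 CPM) and Uqcr10 (134 CPM) had the highest mean levels. In complex V these were Atp5c1, the gamma subunit of the rotor shaft (237 CPM), and the stalk subunits Atp5f1 and Atp5h, at 199 and 202 CPM.

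Complex II was the least abundant. Sdhb, its iron-sulfur subunit, had a median of 96.5 CPM, the flavoprotein subunit Sdha 62.1 CPM and the membrane anchor Sdhc 56.97 CPM. The other anchor, Sdhd, reached only 13.7 CPM. In the sum over members, complex I made up 39.1% ± 0.784 (SD, n = 14 libraries), complex IV 25.02% ± 1.18, complex V 23.3% ± 0.977, complex III 10.0% ± 0.413 and complex II 2.57% ± 0.192. The proportions of the complexes thus varied little between libraries in which the summed level itself differed 2.68 times, from 6062 to 16256 CPM.

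Of the 84 genes, 78 passed the filter on low counts over all cells. The other 6 were Atp5g2, Cox6a2, Cox7a1, Cox7b2, Cox8b and Cox8c, each with 66 UMIs or fewer in all libraries. By symbol, 83 members were found in GENCODE vM21 (mouse build GRCm38), all protein coding and spread over 19 chromosomes. Exons of 29 overlapped an exon of another gene, in 5 cases on the same strand. Whether counting used strand was not stated, so reads within the shared bases of such a pair might be counted for either gene. Whether the shared bases lie near the 3′ ends, where transcripts were tagged, was not examined. One such pair is Atp5j and Gabpa on opposite strands.

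Promoters of 70 members were found in RefSeq sequences (GRCm38.p6), 67 by their own symbol and 3 by a synonym (Atp5f1, Atp5s and Atp5sl). In windows from 250 bases before to 50 after a start, 5 motifs of factors known from promoters of mitochondrial genes were searched on both strands, with overlaps between motifs allowed. The NRF1 letters, GCGCA and GCGC with any 1 base between, were present in 17 of the 70 promoters (24.3%), against 5.19% of 27025 genes in the table and 11.9% of the 8376 that also passed the filter over all cells. The YY1 letters AAGATGGCG were in 8 members (11.4%), against 1.64% of all genes and 3.76% of those that passed. The ETS letters CCGGAAG, read by GABP, were in 16 (22.9%), against 9.93% and 20.1%. The Sp1 letters GGGCGG were in 29 (41.4%), against 38.2% and 70.0%. The ERR letters TCAAGGTCA were in 2 (2.86%), against 0.466% and 0.346%. In all, 52 of the 70 held at least 1 of the 5.

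The bases before the start are printed below for 6 members on which later results turn, 250 bases each, 5′ to 3′ along the gene's own strand, with matches to any of the 5 motifs in capitals. Cox6a1 (chr5:115348959-115349208, minus strand) was called higher in oligodendrocyte-like cells and holds 2 NRF1 matches, 2 Sp1 matches and an ETS match. Atp5j (chr16:84834977-84835226, minus strand, 1 of 2 listed starts) had the smallest p of the members in THY-Tau22 males over all cells and holds a YY1 match at -88 and an ETS match at -61 from the start. Ndufb4 (chr16:37654369-37654618, minus strand), Ndufa11 (chr17:56717512-56717761, plus strand) and Cox5b (chr1:36691237-36691486, plus strand) were called in microglia-like cells of males, with 3, 1 and 0 NRF1 matches before the start. Cox7a2l (chr17:83514334-83514583, minus strand) followed the other members least across classes and holds 1 Sp1 match before the start.
Cox6a1: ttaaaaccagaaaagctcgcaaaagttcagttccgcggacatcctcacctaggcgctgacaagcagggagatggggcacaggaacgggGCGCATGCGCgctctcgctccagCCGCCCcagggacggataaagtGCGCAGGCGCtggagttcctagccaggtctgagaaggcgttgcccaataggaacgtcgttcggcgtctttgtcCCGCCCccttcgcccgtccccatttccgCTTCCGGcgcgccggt
Atp5j: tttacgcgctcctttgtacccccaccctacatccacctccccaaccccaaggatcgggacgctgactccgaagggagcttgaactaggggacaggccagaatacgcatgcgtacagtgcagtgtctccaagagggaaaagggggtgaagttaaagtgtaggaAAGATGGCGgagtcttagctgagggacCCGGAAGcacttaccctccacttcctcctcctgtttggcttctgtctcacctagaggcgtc
Ndufb4: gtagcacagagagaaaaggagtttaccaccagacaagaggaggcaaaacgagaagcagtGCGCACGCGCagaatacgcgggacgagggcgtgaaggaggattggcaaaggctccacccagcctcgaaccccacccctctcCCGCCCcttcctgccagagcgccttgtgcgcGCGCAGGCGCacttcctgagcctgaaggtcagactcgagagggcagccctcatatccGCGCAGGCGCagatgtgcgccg
Ndufa11: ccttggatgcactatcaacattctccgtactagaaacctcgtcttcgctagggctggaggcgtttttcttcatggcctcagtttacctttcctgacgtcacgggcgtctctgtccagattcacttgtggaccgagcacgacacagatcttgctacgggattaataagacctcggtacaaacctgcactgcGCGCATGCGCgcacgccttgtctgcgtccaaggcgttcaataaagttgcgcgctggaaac
Cox5b: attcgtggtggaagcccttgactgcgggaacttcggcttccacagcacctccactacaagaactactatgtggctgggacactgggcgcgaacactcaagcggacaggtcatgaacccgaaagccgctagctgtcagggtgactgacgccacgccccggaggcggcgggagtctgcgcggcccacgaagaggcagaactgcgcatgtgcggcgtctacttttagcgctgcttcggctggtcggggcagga
Cox7a2l: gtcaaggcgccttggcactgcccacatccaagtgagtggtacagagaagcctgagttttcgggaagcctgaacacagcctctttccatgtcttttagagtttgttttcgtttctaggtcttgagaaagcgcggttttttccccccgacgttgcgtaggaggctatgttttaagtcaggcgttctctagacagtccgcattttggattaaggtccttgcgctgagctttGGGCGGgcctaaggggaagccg
A match is a run of letters and not evidence of binding, and its absence in Cox5b says nothing about these factors.

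Across cell classes, astrocyte-like cells carried the highest level of these transcripts and microglia-like and neuron-like cells the lowest. In astrocyte-like cells the members summed to 15239 ± 5698 CPM (SD, n = 14 libraries), with 9145 in the lowest, 13773 in the median and 28336 in the highest library. Microglia-like cells had 6410 ± 1913 CPM, from 4240 to 10293 with a median of 6214. The ranges of these classes overlap because libraries differ, but within each of the 14 libraries the astrocyte-like cells were above the microglia-like cells, by 1.22 ± 0.157 on the log2 scale (SD). The other classes lay between them: mural-like cells at 10926 ± 3662 CPM (n = 13), OPC-like cells at 10552 ± 3416, oligodendrocyte-like cells at 10269 ± 3312, endothelial-like cells at 9146 ± 2709 and neuron-like cells at 8202 ± 4911.

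Astrocyte-like cells were the highest class in 13 of 14 libraries, and mural-like cells in the other. Microglia-like cells were the lowest in 8 libraries and neuron-like cells in 6. Neighbours in the middle of the order were not separated: OPC-like cells were above oligodendrocyte-like cells in 7 of 14 libraries, with a mean log2 ratio of 0.04 ± 0.15 (SD). Neuron-like cells were above microglia-like cells in 8 of 14, with a ratio of 0.20 ± 0.54. The order was similar when every cell was thinned to 300 UMIs, which left out 755 shallower cells. An astrocyte-like cell then held 4.25 member UMIs on average, a mural-like cell 3.22, an oligodendrocyte-like cell 2.92, an OPC-like cell 2.73, an endothelial-like cell 2.46, a microglia-like cell 1.82 and a neuron-like cell 1.68.

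Many neuron-like cells held no member UMI. After thinning, 60.9% of them held at least 1 member UMI, against 80.1% of microglia-like and 94.9% of astrocyte-like cells (82.4%, 92.1% and 99.0% unthinned). In the neuron class of each library, their summed level in THY-Tau22 females was 5546, 8121, 11550, 18140 and 4196 CPM. In THY-Tau22 males it was 5924, 5009 and 18276 CPM. In WT males it was 3913, 5636 and 6696 CPM, and in WT females 7796, 11094 and 2932 CPM. The highest values came from THY-Tau22 male 3 and THY-Tau22 female 4, and 3 cells of 1 library held 1107 of the 8091 member UMIs of the class (13.7%).

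**Figure D1:**
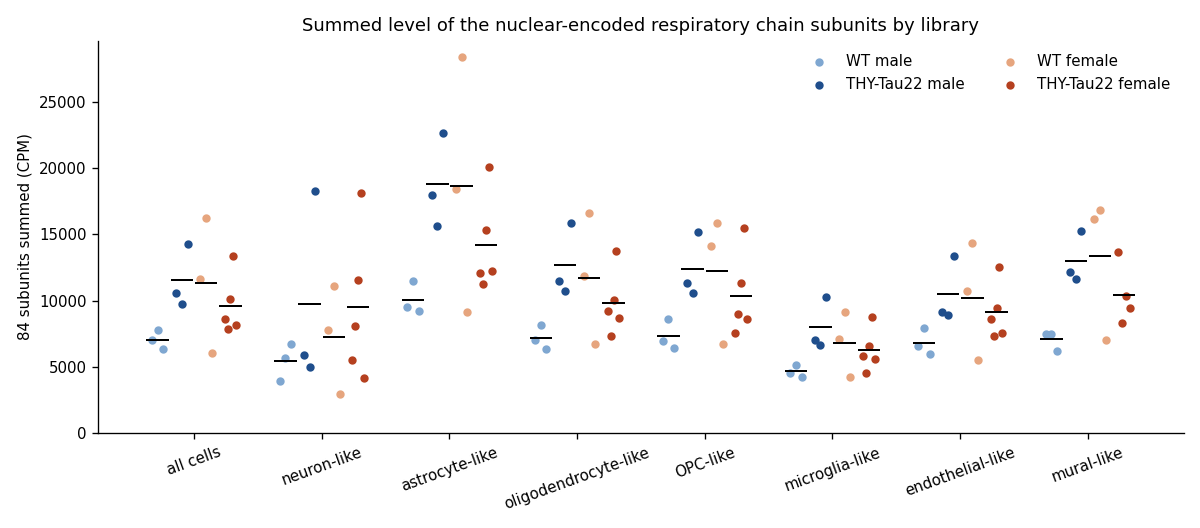
Summed level of the 84 subunit genes in CPM (vertical axis) over all cells and in each cell class (horizontal axis), with 1 point per library, coloured by sex and genotype, and a bar at each group's mean. Astrocyte-like cells reach 28336 CPM in WT female 2, and the WT males lie below the THY-Tau22 males over all cells.

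The classes were compared gene by gene with edgeR's quasi-likelihood test on summed counts, with the library as a block, each class against the mean of the other 6. In all, 72 members and 5055 genes passed the filter, and a gene was called at an adjusted p under 0.05 and an absolute log2 difference of at least 0.5. The scaling of libraries moved the median over all genes by more than 0.1 in several classes: under TMM, the trimmed mean scaling used here, it was -0.52 in mural-like cells, against 0.07 with plain totals, and 0.01 in microglia-like cells, against -0.30. Member medians are therefore given relative to the median of all genes, which varied little with the scaling, and counts of calls are given with the number that held under all 4 scalings or tools tried (TMM, RLE size factors and plain totals in edgeR, and DESeq2).

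In astrocyte-like cells, 67 of 72 members were called higher and 1 lower, against 28.4% of all genes called higher and 24.4% called lower, and 55 were called higher under all 4 scalings. The member median lay 1.08 above that of all genes. Complex I had 34 of 36 tested members called higher, complex II 3 of 3, complex III 8 of 8, complex IV 9 of 11 and complex V 13 of 14. The largest differences were those of Ndufa12, an accessory subunit of complex I, at 291 CPM against a mean of 97.2 in the other classes (log2 difference = 1.96 ± 0.10 SE, adjusted p = 3.1e-50, edgeR), and of Ndufc2, at 466 against 149 CPM (1.92 ± 0.08, adjusted p = 1.3e-60). Cox5a, a core-binding subunit of cytochrome oxidase, reached 279 against 114 CPM (1.59 ± 0.10). Ranked by mean CPM, 59 of the 72 had their highest level in this class and none in neuron-like cells.

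The exception was Cox7a2l, also called SCAF1, which joins complexes III and IV into supercomplexes and which C57BL/6 mice carry as a shortened allele. In astrocyte-like cells it lay at 60.1 CPM against 120 CPM in the others (log2 difference -0.52 ± 0.14, adjusted p = 6.4e-04, edgeR). That call was near the threshold of 0.5 and was lost, at -0.49 to -0.44, without WT male 1, WT male 4, THY-Tau22 male 1 or THY-Tau22 female 1, 2 or 3, and at -0.45 with DESeq2. In microglia-like cells it was at 187 ± 54.5 CPM, from 103 to 283 over libraries, against 99.0 CPM in the others (1.45 ± 0.10, adjusted p = 1.0e-32). It was the only member called higher in that class, and it kept that call under all 4 scalings.

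By class, Cox7a2l ranked microglia-like (187 CPM), mural-like (165), endothelial-like (163), oligodendrocyte-like (89.2), neuron-like (65.5), astrocyte-like (60.1) and OPC-like cells (50.4). The first 3 were within the spread between libraries, and the highest value of a library lay in microglia-like cells in 6, in mural-like cells in 7 and in endothelial-like cells in 1. In OPC-like cells its difference was -1.42 ± 0.24 (adjusted p = 4.1e-08, edgeR), and it was the only member called lower there under all 4 scalings.

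In microglia-like cells, 62 of the 72 members had a difference below 0, most of them without a call. With TMM scaling 27 members were called lower and 1 higher, against 29.9% and 32.2% of all genes, and the same 27 were called lower under all 4 scalings, while DESeq2 called 55 lower. The share with TMM was near the background for calls in that direction. The member median lay 0.41 below that of all genes, and 49 of the 72 had their lowest mean CPM in this class. Ndufb4 had 32.1 CPM against 88.9 in the others (-1.02 ± 0.16, adjusted p = 3.7e-09, edgeR), Ndufa5 79.9 against 206 CPM (-1.004 ± 0.11) and Ndufb2 32.9 against 87.9 CPM (-0.99 ± 0.15). All 3 are accessory subunits of complex I, which held 18 of the 27 members called lower.

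Neuron-like cells had 18 members called lower and 2 higher, against 32.1% and 29.7% of all genes, so neither share stood above the background. Called lower under all 4 scalings were Atp5c1, Cox7a2l, Ndufa7, Ndufb11, Ndufb7 and Sdhc. Ndufa7 lay at 52.7 against 143 CPM (-1.14 ± 0.20, adjusted p = 7.7e-08, edgeR) and Sdhc at 43.0 against 79.2 CPM (-1.05 ± 0.24). Ndufs1, the large iron-sulfur subunit of complex I, was called higher under all 4, at 68.3 against 41.9 CPM (0.83 ± 0.23, adjusted p = 8.8e-04, edgeR). Ndufa10 was also called higher with TMM (0.55 ± 0.16), but not without WT male 2 (0.49), THY-Tau22 male 3 (0.39) or THY-Tau22 female 4 (0.44).

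Oligodendrocyte-like cells had 17 members called higher and 1 lower, against 27.0% and 25.7% of all genes, and the member median lay 0.37 above that of all genes. Ndufa3 (log2 difference 1.11 ± 0.09, 242 against 136 CPM), Ndufb11 (0.85 ± 0.13) and Cox6a1 (0.80 ± 0.08, 373 against 261 CPM), whose promoter is printed above, were higher under all 4 scalings. Ndufs3, a core subunit of complex I, was lower under all 4 (-0.59 ± 0.19, 28.7 against 51.7 CPM), but not without THY-Tau22 female 5 (-0.49).

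Endothelial-like cells had 10 members called lower and 4 higher, against 26.2% and 27.3% of all genes. Ndufa7 was higher there (237 against 112 CPM, 1.18 ± 0.11, adjusted p = 5.6e-22, edgeR), as were Cox7a2l (0.88 ± 0.12) and Uqcrb (0.61 ± 0.10), whose call was lost without THY-Tau22 female 5 (0.40) or WT female 3 (0.44). Atp5g1, which encodes subunit c of the ATP synthase ring, was lower (26.3 against 66.2 CPM, -1.24 ± 0.21, adjusted p = 5.2e-08, edgeR), as were Ndufs8 (-0.75 ± 0.21) and Ndufs1 (-0.72 ± 0.22). Of the 4 higher calls, those of Cox7a2l and Ndufa7 held under all 4 scalings, and the 10 lower calls did as well. OPC-like cells had 7 members called lower and 0 higher with TMM (20.3% and 24.6% of all genes) and, with plain totals, 1 lower and 8 higher. Mural-like cells had 14 lower and 1 higher (34.9% and 12.8% of all genes). None of the 14 was called lower under the other scalings, so no direction is given for them, and Sdhc alone was called higher under all 4 (132 against 64.4 CPM, 0.59 ± 0.26). It lost the call without WT male 1 (0.45), without THY-Tau22 male 2 (0.61) and without THY-Tau22 female 3 (0.58).

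**Figure D2:**
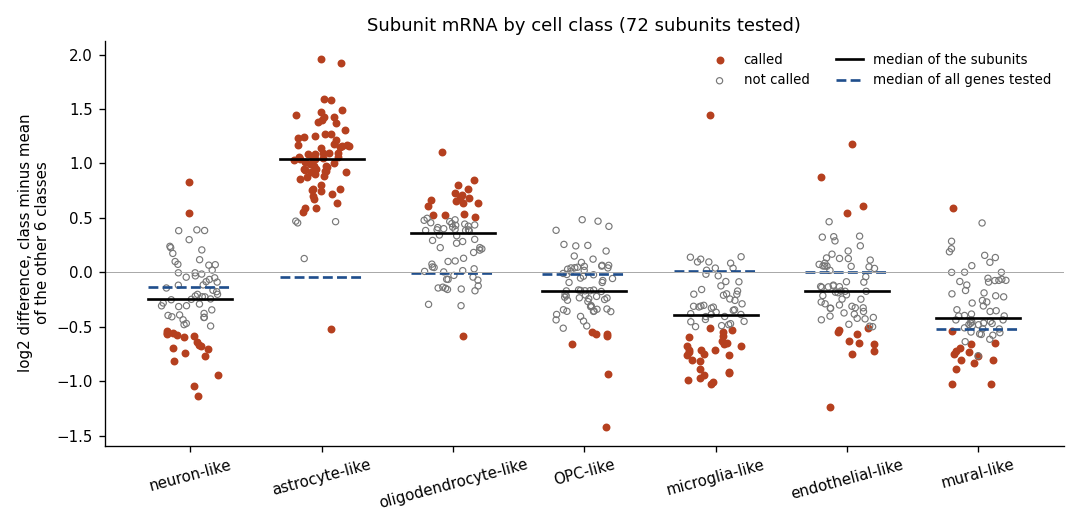
Log2 difference of each of the 72 tested members between a cell class and the mean of the other 6 (vertical axis), by class (horizontal axis). Filled points are called, the solid bar is the median of the subunits and the dashed bar that of all genes tested. In astrocyte-like cells 67 points are called above 0, and the single high point in microglia-like cells, at 1.45, is Cox7a2l.

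Among the alternative isoforms of complex IV subunits, Cox4i2, Cox6a2 and Cox8b received most of their classed UMIs in 1 class each. Cox4i2, the isoform of subunit IV known from lung and from vascular smooth muscle, had its highest class mean in mural-like cells, at 210 ± 144 CPM (SD, n = 13 libraries), with 0 in the lowest, 198 in the median and 529 in the highest library. In each other class its mean was at most 7.24 CPM, and mural-like cells were the highest class in 12 of 13 libraries. No Cox4i2 UMI was seen in the mural-like cells of WT male 4, where this mural class held 14214 UMIs in all. Of its 164 UMIs over all cells, 63 lay in mural-like cells, 65 in cells assigned to no class, 15 each in astrocyte-like and endothelial-like cells and 3 or fewer in any other class. A UMI was seen in 56 of 383 mural-like cells (14.6%, exact 95% interval 11.2 to 18.6%) and in 0 of 4618 oligodendrocyte-like cells, which by a limit of 3 counts allows a share of cells with a UMI of up to 0.0650%, at median depths of 570 and 582 UMIs. In the 3895 cells assigned to no class the share was 1.51%, at a median depth of 479 UMIs. Intervals and limits of this kind cover counting error only. Cox4i2 did not pass the filter in the comparison of classes. Without the filter its difference in mural-like cells was 5.64 (adjusted p = 1.9e-62, edgeR), a fitted value that depends on how zeros are treated.

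Cox8b, the heart and muscle isoform of subunit VIII, received 49 UMIs in all. Of these, 40 (81.6%) fell in 34 choroid plexus-like cells of 8 libraries, chosen by markers of the epithelium that makes cerebrospinal fluid. The transthyretin gene Ttr was detected in 34 of the 34 cells, Kl in 18, Clic6 in 17 and Folr1 in 15. WT male 1 gave 21 of the cells and 22 of the UMIs, and THY-Tau22 female 1 gave 3 cells and 12 UMIs. The members summed to 20312 CPM over the 21 cells of WT male 1 and to 25458 CPM over all 34 cells. In the few cells of each other library they took a larger share, such as 314 of 4739 UMIs in THY-Tau22 female 1. Since WT male 1 gave most of the cells, no comparison with the main classes was made.

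Cox6a2, the heart and muscle isoform of subunit VIa, had 36 of its 38 UMIs in 25 of 5985 microglia-like cells (0.418%, exact 95% interval 0.270 to 0.616%), from 10 libraries, with 13 of them in THY-Tau22 male 3. It shares 70 exon bases with the integrin gene Itgad on the opposite strand. Itgad had 2 UMIs in microglia-like and 9 in oligodendrocyte-like cells, and no cell held UMIs of both genes. Cox6b2, Cox7a1, Cox7b2 and Atp5g2 had 135, 58, 14 and 66 UMIs, of which 38, 20, 10 and 19 lay in astrocyte-like cells, and Cox8c had 1. A further 31 UMIs of Cox6b2 lay in oligodendrocyte-like cells, 13 of Cox7a1 in endothelial-like cells, and 15 and 12 of Atp5g2 in microglia-like and oligodendrocyte-like cells. Cox6b2 and Atp5g2 had UMIs in all 7 classes. The more abundant genes Cox6b1, Cox7a2, Cox7b and Atp5g3 had class means over libraries of 154 to 281, 99.6 to 283, 145 to 421 and 84.02 to 317 CPM.

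**Figure D3:**
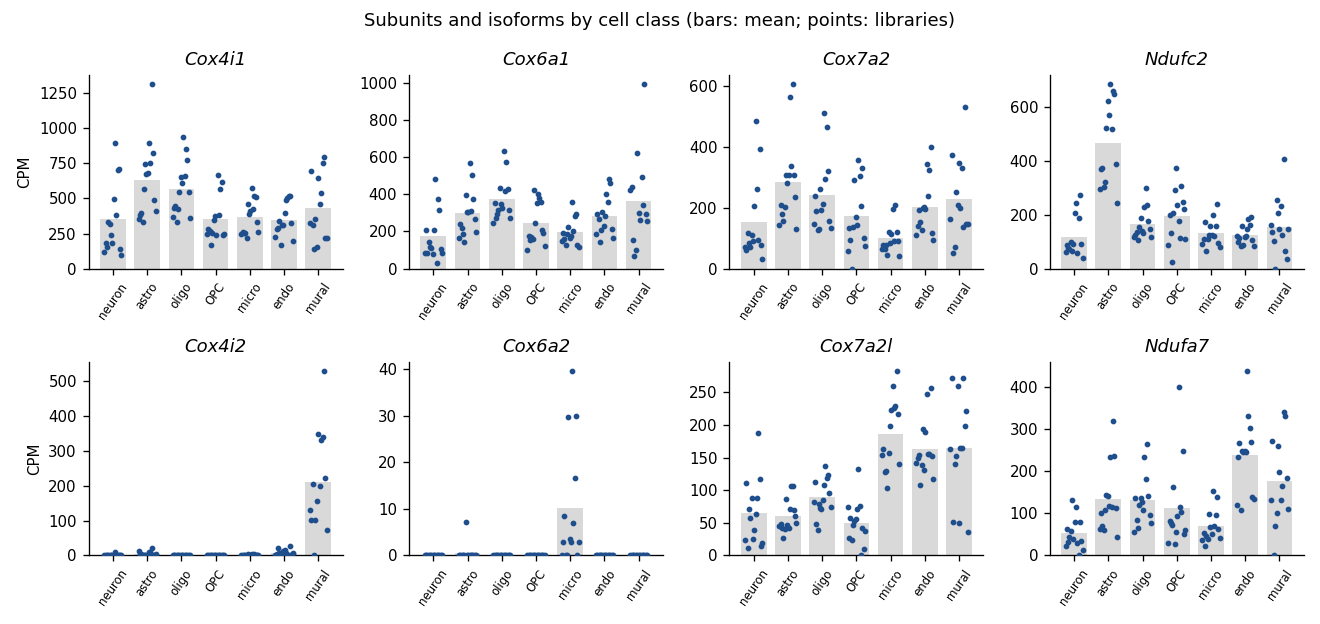
Level in CPM (vertical axes, each on its own scale from 0) of 8 members in the 7 cell classes, with 1 point per library and bars at the class means. Ndufc2 is highest in astrocyte-like cells, Cox4i2 in mural-like cells at a mean of 210 CPM, Cox6a2 in microglia-like cells, Cox7a2l in microglia-like, endothelial-like and mural-like cells and Ndufa7 in endothelial-like cells.

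Partner genes of the chain were described from lists of 13 mitochondrially encoded subunits (8 tested), 46 assembly factors (10 tested across classes), 16 carriers of electrons, ADP and phosphate (3 tested) and 16 regulators (3 tested). Calls of partner genes, here and below, are given with TMM scaling only. In neuron-like cells, 8 of 8 mitochondrially encoded subunits were called higher, against 1503 of 5055 genes. Their median log2 difference was 1.00 (-0.13 over all genes), where nuclear members had a median of -0.25. In OPC-like cells 8 of 8 were called lower (1025 of 5055 genes), with a median of -0.84. In astrocyte-like cells 1 of 8 was called higher (1434 of 5055 genes), with a median of 0.47. 

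The ADP/ATP carriers Slc25a4 (1.83) and Slc25a5 (1.503) and the phosphate carrier Slc25a3 (1.40) were called higher in astrocyte-like cells, which is 3 of the 3 tested. In microglia-like cells Slc25a4 was called lower (-1.47) and Slc25a5 higher (1.14). Of the assembly factors, 4 of 10 were called higher in astrocyte-like cells, among them Ndufaf4 (1.31) and Cox20 (1.05), against 28.4% of all genes. In microglia-like cells 4 of 10 were called lower and 1 higher (29.9% and 32.2% of all genes). In oligodendrocyte-like cells 3 of 10 were called higher and 1 lower, against 1365 and 1299 of 5055 genes. In mural-like cells 4 of 10 were called lower, against 1762 of 5055 genes. The coactivator gene Ppargc1a, known for driving mitochondrial biogenesis, was called higher in astrocyte-like (3.79), neuron-like (2.28) and OPC-like cells (1.63) and lower in the other 4 classes.

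Between genotypes, the summed level of the members lay higher in each THY-Tau22 male than in each WT male, while in females the groups overlapped. No single member passed the test over all cells, and 3 did in microglia-like cells of males. Over all cells, the members summed to 7033, 7750 and 6350 CPM in WT males and to 10554, 9767 and 14297 CPM in THY-Tau22 males. The groups did not overlap in males. In WT females the sums were 11614, 16256 and 6062 CPM, and in THY-Tau22 females 8638, 7847, 10101, 13381 and 8152 CPM. The THY-Tau22 females lay within the range of the WT females, whose libraries held both the lowest and the highest value of the study. In bulk sums of this kind, a change in the number of cells of a class and a change in RNA per cell cannot be told apart.

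Gene by gene over all cells, 76 of 78 tested members had a positive log2 fold change in males, with a median of 0.48 (all genes: 0.01), 25 had an unadjusted p under 0.05 by edgeR, against 15.4% of all genes, and 0 members and 0 of 11643 genes passed the adjusted threshold (0% called). For 59 of the 78, every THY-Tau22 male lay above every WT male, against 22.4% of all genes, and for 0 every one lay below, against 6.68%. The smallest p was that of Atp5j, coupling factor 6 in the stalk of ATP synthase, with 91.4, 123 and 106 CPM in WT males and 238, 245 and 297 in THY-Tau22 males. Its groups did not overlap in males (log2 fold change 1.11 ± 0.33 SE, adjusted p = 0.228, edgeR). In females, Atp5j had 276, 311 and 85.4 CPM in WT and 138, 166, 232, 318 and 133 CPM in THY-Tau22 mice, and the groups overlapped.

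Cox8a, the common isoform of subunit VIII, lay at 154, 191 and 107 CPM in WT males and at 334, 324 and 479 CPM in THY-Tau22 males (1.14 ± 0.38, adjusted p = 0.236, edgeR). The groups did not overlap. Ndufa7 (0.92 ± 0.29), Ndufb4 (1.06 ± 0.38) and Uqcrq, a small subunit of complex III (0.77 ± 0.29), also had no overlap between the male groups and adjusted p-values of 0.234 to 0.268 (edgeR). In the sums, each complex had a higher mean in THY-Tau22 than in WT males. Complex I had 2810 ± 327 CPM in WT and 4425 ± 850 in THY-Tau22 males (SD, n = 3 each), complex II 176 ± 26.9 and 307 ± 83.7, complex III 688 ± 103 and 1159 ± 248.5, complex IV 1698 ± 185 and 3016 ± 753, and complex V 1673 ± 64.5 and 2632 ± 493.

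In females, 7 of the 78 had a positive fold change over all cells, with a median of -0.20, and none had an unadjusted p under 0.05 by edgeR or passed the adjusted threshold (0% of genes called). No member had every THY-Tau22 female above or below every WT female (0.679% and 0.507% of all genes). Atp5d, the delta subunit of ATP synthase, had the smallest p, at -0.47 ± 0.31 (adjusted p = 1.00, edgeR). The sign rested on WT female 2, without which the median was 0.10, and without WT female 3 it was -0.42. Averaged over both sexes, 74 of 78 were positive with a median of 0.16, and 0 were called (0% of genes). For the interaction, the male minus the female log2 fold change, 77 of 78 were positive with a median of 0.68, 30 had an unadjusted p under 0.05 (12.7% of genes) and 0 were called (0% of genes). Cox8a had the smallest p there (1.54 ± 0.50, adjusted p = 0.291, edgeR), and no member passed the threshold over all cells.

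**Figure D4:**
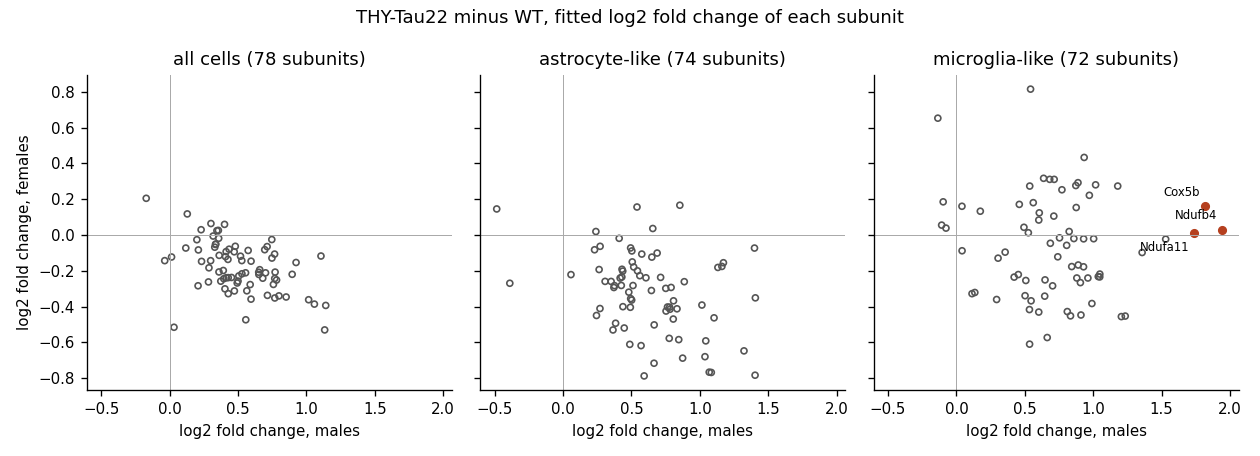
Fitted log2 fold change of each tested member between THY-Tau22 and WT mice in males (horizontal axis) and in females (vertical axis), over all cells and in astrocyte-like and microglia-like cells. Most points lie to the right of 0, and the 3 filled points in microglia-like cells, Cox5b, Ndufb4 and Ndufa11, are the members called in males.

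By class, with edgeR and TMM on the 14 libraries, members were called in microglia-like cells of males and in no other test of genotype. There, 3 of 72 were called higher, against 1.47% of all genes called, and 68 were positive with a median of 0.71. In the microglia class, the summed level was 4568, 5154 and 4240 CPM in WT males and 6995, 6650 and 10293 in THY-Tau22 males, without overlap. For 33 of the 72, every THY-Tau22 male lay above every WT male, against 15.8% of all genes. In females the sums were 7107, 9123 and 4245 CPM in WT and 5826, 4574, 6601, 8759 and 5610 CPM in THY-Tau22 mice, with overlap, and 30 of 72 members were positive with a median of -0.05.

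Cox5b, a zinc-binding subunit of cytochrome oxidase, lay at 29.9, 29.8 and 23.5 CPM in microglia-like cells of WT males and at 59.6, 87.2 and 168 CPM in those of THY-Tau22 males (1.82 ± 0.45 SE, adjusted p = 0.0313, edgeR). In females it lay at 77.7, 87.6 and 29.8 CPM in WT and at 64.3, 38.8, 87.6, 120 and 39.4 CPM in THY-Tau22 mice. The male groups did not overlap and the female groups did, and WT female 1 was above the lowest of the THY-Tau22 males and WT female 2 above the lower 2.

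Ndufa11, an accessory subunit in the membrane arm of complex I, had 16.1, 29.8 and 11.8 CPM in WT males and 59.6, 59.3 and 85.5 CPM in THY-Tau22 males (1.74 ± 0.42, adjusted p = 0.0299, edgeR). Ndufb4, of the same arm, had 11.5, 21.3 and 11.8 against 42.6, 55.8 and 79.4 CPM (1.94 ± 0.50, adjusted p = 0.0426, edgeR). For both, the WT males lay below every THY-Tau22 male. WT females had 63.6, 33.4 and 32.7 CPM of Ndufa11 and 21.2, 37.5 and 23.8 CPM of Ndufb4, above most or all WT males. In WT males the levels of both genes, like those of Cox5b, rest on few UMIs per library. WT male 4 had 321 microglia-like cells, and the median cell of the class held 536 UMIs.

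The 3 calls changed with the samples and the tool. Across 28 other settings Cox5b was called in 18 (log2 fold change 1.27 to 2.58, adjusted p = 0.0036 to 0.352, edgeR), and across 27 each Ndufa11 was called in 19 (1.31 to 2.08, adjusted p = 0.0115 to 0.308) and Ndufb4 in 14 (1.57 to 2.22, adjusted p = 0.0220 to 0.319). These settings include DESeq2, which gave no adjusted p for the 3 genes and so neither a call nor a lost one. None of the 3 passed without WT male 1, WT male 4, THY-Tau22 male 1 or THY-Tau22 male 3, with both libraries of the shared animal number left out, with all 16 libraries as labelled, or with the shared library kept as a THY-Tau22 male. Cox5b also missed the threshold without WT male 2 (adjusted p = 0.0740, edgeR) and with cells of at least 500 genes. Ndufb4 also missed it without WT male 2, THY-Tau22 male 2, WT female 1, or THY-Tau22 female 1 or 3 (adjusted p = 0.0517 to 0.0608, edgeR). Without WT female 3, which shares the estimate of the spread, 18 male tests over all levels were called, 7 of them in microglia-like cells. WT female 3 and THY-Tau22 female 5 carry the code MB22 in their titles where the other libraries have MB21. Without both of them, 20 male tests were called, again with 7 in microglia-like cells, and Cox8a, Cox6b1, Ndufa1 and Ndufa7 joined the first 3. The share of all genes called without these libraries is not given, so the counts say nothing particular to the members.

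Of the partner genes, 6 of 8 mitochondrially encoded subunits tested in male microglia-like cells were called higher, against 66 of 4904 genes. The 8 had a median of 1.202 on the log2 scale. The 6 were mt-Nd3 (2.82), mt-Cytb (1.45), mt-Nd4 (1.37), mt-Co1 (1.22), mt-Nd1 (1.18) and mt-Nd2 (0.99). These calls are given with all 14 libraries only, and not with libraries left out. The assembly factors (13 tested, median 0.31), the carriers (4 tested, 0.55) and the regulators (3 tested, -0.26) had none called in male microglia-like cells. Over all cells in males, none of the 4 lists had a member called, and the medians were 0.93, 0.50, 0.40 and -0.05, in the same order. In females over all cells these medians were -0.18, -0.12, -0.06 and 0.02.

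In the other classes of males no member was called, at a background of 0% in neuron-like, astrocyte-like, OPC-like and endothelial-like cells and 0.139% in oligodendrocyte-like cells, while most members were positive. In astrocyte-like cells, 72 of 74 were positive with a median of 0.57. For 58, every THY-Tau22 male lay above every WT male, against 22.3% of all genes. In oligodendrocyte-like cells 69 of 72 were positive (median 0.63), and 53 lay wholly above in this way, against 21.3%. In endothelial-like cells 56 of 63 were positive (0.41), with 20 wholly above against 16.6%. In OPC-like cells it was 23 of 26 (0.64), with 9 wholly above against 11.5%. In neuron-like cells 46 of 47 were positive (0.71), but only 6 lay wholly above, against 8.84%. Without THY-Tau22 male 3 the neuron-like median was -0.05. No member had every THY-Tau22 male below every WT male in these classes or in microglia-like cells, against 5.52% of all genes in neuron-like, 5.73% in astrocyte-like, 6.94% in oligodendrocyte-like, 8.37% in OPC-like, 9.75% in microglia-like and 6.76% in endothelial-like cells. Mural-like cells had 3 members tested, too few to describe.

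Atp5j and Cox8a had the smallest p-values in astrocyte-like cells. There, Atp5j had 102, 207 and 108 CPM in WT males and 472, 344 and 498 in THY-Tau22 males (1.41 ± 0.34, adjusted p = 0.132, edgeR). Cox8a had 215, 335 and 175 against 744, 548 and 897 CPM there (1.32 ± 0.35, adjusted p = 0.132, edgeR). Neither gene's male groups overlapped. In oligodendrocyte-like cells Ndufa4 led (1.32 ± 0.35, adjusted p = 0.112, edgeR), in OPC-like cells Ndufc2 (1.72 ± 0.52, adjusted p = 0.168), in endothelial-like cells Atp5j (1.18 ± 0.37, adjusted p = 0.242) and in neuron-like cells Atp5f1 (1.65 ± 0.55, adjusted p = 0.502).

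In females, the median fold change of the tested members was -0.29 in astrocyte-like, -0.20 in oligodendrocyte-like, -0.14 in endothelial-like, -0.12 in OPC-like and 0.43 in neuron-like cells, where 39 of 47 were positive. None was called (0% of genes, 0.0231% in oligodendrocyte-like cells). All 5 THY-Tau22 females lay above all 3 WT females for Ndufa8 and Ndufc1 in endothelial-like cells (1.22% of genes) and below them for Ndufs3 in oligodendrocyte-like cells (1.02%), named here after their values were seen. No other member was separated in that way in neuron-like (2.4% of genes above and 0.613% below), astrocyte-like (1.29% and 0.594%), OPC-like (1.41% and 0.907%) or microglia-like cells (1.28% and 0.856%), nor above in oligodendrocyte-like (0.833%) or below in endothelial-like cells (0.548%). For the interaction the medians were 0.87 in astrocyte-like, 0.88 in oligodendrocyte-like, 0.79 in microglia-like, 0.54 in endothelial-like, 1.02 in OPC-like and 0.56 in neuron-like cells (-0.51 without THY-Tau22 male 3), and no member was called by edgeR (0% of genes, 0.0694% in oligodendrocyte-like cells). Over all cells and the 7 classes together, 131 of 435 interaction tests and 130 of 435 male tests had an unadjusted p under 0.05 by edgeR, against 109 and 109 by DESeq2, and 11 of 435 female tests by edgeR against 7 by DESeq2. Leaving out WT female 3 gave 92 interaction calls over all levels, all of them positive and 36 in astrocyte-like cells, and leaving out both libraries with the code MB22 gave 58 against 0 with all 14 libraries. DESeq2 called 1 member in the interaction, Cox8a in astrocyte-like cells, and 2 in males, Cox6b1 and Cox8a in microglia-like cells. The share of all genes called with DESeq2 or with these libraries left out is not given. These counts therefore say nothing particular to the members.

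Other transcripts moved with the members from library to library. The summed level of the members over all cells correlated with that of mitochondrially encoded mRNA (Pearson's r = 0.921, Spearman's rho = 0.921, 14 libraries) and of cytosolic ribosomal proteins (r = 0.962, rho = 0.965). It correlated negatively with the mitochondrial ribosomal RNAs mt-Rnr1 and mt-Rnr2 (r = -0.933, rho = -0.947) and with the nuclear RNA Malat1 (r = -0.927, rho = -0.943), both examined after the first values were seen. Without the 2 libraries farthest from the median of the other measure, r was 0.883, 0.924, -0.888 and -0.900. All of these are shares of the same library totals, and the mitochondrial ribosomal RNAs alone took 4.66% to 23.1% of a library, so the measures are not independent, and no p is given.

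These measures also separated the male groups. Mitochondrial ribosomal RNA lay at 229859, 170724 and 190858 CPM in WT males and at 113790, 131844 and 112798 CPM in THY-Tau22 males. Cytosolic ribosomal proteins lay between 9841 and 12093 CPM in WT males and between 16509 and 20827 CPM in THY-Tau22 males, and Malat1 between 50529 and 62817 CPM against 29164 to 41039 CPM. None of the 3 overlapped between the male groups. In females each overlapped, with WT female 3 at 230998 CPM of mitochondrial ribosomal RNA and 6062 CPM of members, and WT female 2 at 46637 and 16256 CPM. The part of this difference between libraries in the fold changes of the members was not tested.

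**Figure D5:**
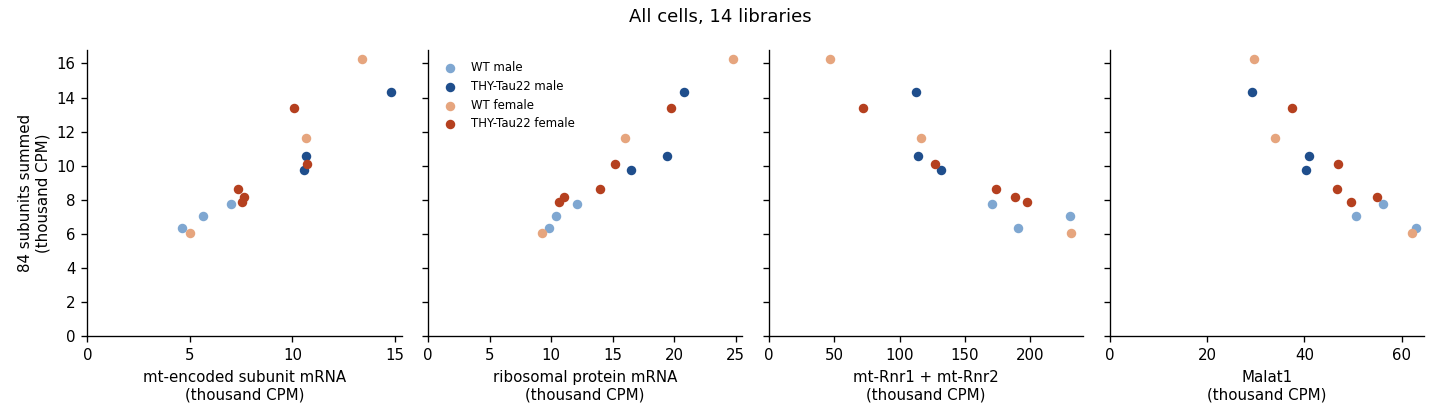
Summed level of the members over all cells against mitochondrially encoded mRNA, cytosolic ribosomal proteins, mitochondrial ribosomal RNA and Malat1, all in CPM, with 1 point per library coloured by group. WT female 3, at 6062 CPM, and WT male 4, at 6350 CPM, lie at the low end of the members' level, and WT female 2 and THY-Tau22 male 3 at the high end, at 16256 and 14297 CPM.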

How the data were processed

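The authors dissociated the neocortex of each mouse with an Adult Brain Dissociation kit, made Drop-seq libraries and ran the standard Drop-seq pipeline against mm10, per the submitters' processing notes. The pipeline's version, annotation and strand setting were not given in the sources used here. The deposited values were whole UMI counts per gene and barcode, not normalized, for 3000 barcodes in each of 16 tables.

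Barcodes with 200 to 7000 genes were kept. A cell was classed by its marker score, the excess of a list's UMIs over expectation divided by the square root of the expectation plus 0.25. It needed at least 3 marker UMIs, a top score of at least 3 and a second score of at most 0.5 times the top. This rule was chosen after the files were seen. In all, 84.2% of cells scored in a list. By library the share was lowest in THY-Tau22 male 3 (65.2%), then in THY-Tau22 female 4 (79.1%), and highest in THY-Tau22 female 5 (88.9%). A class is a range of scores: 1617 classed cells scored 3 to 4, 1234 unclassed cells 2 to 3, and 869 had too high a second score. Counts were summed per library and class (at least 10 cells) and tested with edgeR 4.0.16 (R 4.3.3; TMM, filterByExpr, quasi-likelihood test, Benjamini-Hochberg adjustment), as 4 group means for genotype and with a library term for classes. The other choices tried were RLE size factors, DESeq2 1.42.0, plain totals, no filter, stricter cells, other marker minimums, no mitochondrially encoded genes, the shared library kept, and libraries left out. On simulated counts for males over all cells (11363 genes), 98.0% of genes raised by a log2 of 2 were called. The share was 32.0% for genes raised by 1, 67.3% for those lowered by 2 and 23.9% for those lowered by 1. Of the unchanged genes, 7 were called. Each gene was drawn independently around a common mean, without shifts shared by many genes of a library, so these shares may not hold for the real counts.

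Genes are named by fixed rules: per comparison, up to 5 (all cells) or 2 (classes) members with the smallest p, all called members between genotypes, up to 3 called per direction for classes, the 3 highest members of each complex and the isoforms of complex IV and of subunit c. The members and lists were chosen with earlier results of these data known. The titles give 1 animal number per library, and p-values measure the spread between libraries. WT male 3 and THY-Tau22 male 4 were left out, because of their shared barcodes. Depth was 755945 to 2089367 UMIs per library.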

Additional observations from a re-analysis of the deposited data

Results flagged for a closer look

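Cox4i2, the subunit IV isoform with its highest class mean in mural-like cells, lay at 5.64 CPM over all cells in THY-Tau22 female 5, below the other libraries of its group of 5, which lay between 8.49 and 9.26 CPM. Its gap to the nearest library was 0.787 of the group's whole range, above the limit of 0.71 for 5 samples. Of 24 groups tested in this way 1 stood out, and chance alone gives about 1 in 20.

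Barcodes with fewer than 200 genes, which entered no comparison, held 27634 UMIs of the members. The 7 processed copies with names ending in -ps, which the choice of members left out, held 2439 UMIs, beside 167432 UMIs of the members. How reads shared between a copy and its parent gene were counted was not stated.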

How the results depend on the processing

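The numbers of called members depended on the settings more than the medians did. With 14 libraries left out in turn, the male median over all cells was 0.37 to 0.59, the interaction median 0.40 to 0.91, the female median -0.42 to 0.10 and the median over both sexes 0.05 to 0.30. The correlations were 0.909 to 0.944 with mitochondrially encoded mRNA and 0.941 to 0.981 with ribosomal proteins.

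Of 435 genotype tests over all cells and classes, 3 male ones were called. This count was 13 with no low-count filter, 1 with cells of at least 500 genes, 0 with all 16 libraries as labelled, 6 and 0 with the shared library kept as WT or as THY-Tau22 male, 0 without both libraries of the shared animal number, 20 without both libraries with the code MB22, and 0 to 18 with 1 library left out (highest without WT female 3). The interaction count of 0 was 8 with no filter, 1 with DESeq2, 58 without the MB22 libraries and 0 to 92 with 1 left out, again highest without WT female 3. The female count of 0 was 0 to 2 with 1 library left out, and that over both sexes stayed at 0. Shares of all genes called under the same settings are not given for these genotype counts.

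Between classes, the neuron-like count of 20 was 11 with RLE, 12 with DESeq2 and 8 with at least 500 genes. The oligodendrocyte-like count of 18 was 9 with RLE, 43 with no filter, 9 with DESeq2 and 6 with plain totals. The OPC-like count of 7 was 16 with no filter, 12 with 500 genes, 11 without mitochondrially encoded genes and 14 with 5 marker UMIs. The microglia-like count of 28 was 56 with RLE, 56 with DESeq2, 45 with 500 genes and 57 with plain totals. The endothelial-like count of 14 was 30 with RLE and 30 with DESeq2. The mural-like count of 15 was 2 with RLE, 27 with no filter, 3 with DESeq2, 1 with 500 genes, 2 without mitochondrially encoded genes, 3 and 8 with 2 and 5 marker UMIs, 29 without the libraries of the shared number and 9 without the MB22 libraries. With 1 library left out the counts were 12 to 31 in neuron-like, 67 to 70 in astrocyte-like, 14 to 25 in oligodendrocyte-like, 6 to 12 in OPC-like, 26 to 45 in microglia-like, 11 to 31 in endothelial-like and 4 to 18 in mural-like cells. The causes were not tested.

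Among the single genes, 4 female fold changes over all cells, none of them called, changed sign without WT female 2. With 1 library left out they were -0.82 to 0.10 for Atp5d, -0.52 to 0.035 for Atp5b, -0.82 to 0.035 for Cox4i2 and -0.55 to 0.10 for Atp5e. Plain totals, leaving out either pair of libraries, and the correlations with ribosomal RNA and Malat1 were chosen after seeing the data. No paired analysis was possible because the replicate numbers only name the libraries. Shallow cells, with 429 to 736.5 UMIs at the median, limit single genes, and not only in the smaller classes. In microglia-like cells, the largest class, the members called in males also rested on few UMIs per library in WT males.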
